A study of Mus musculus with 6 samples.

Results

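Matrix metalloproteinases (MMPs) and tissue inhibitors of metalloproteinases (TIMPs) were examined in primary lung-resident fibroblasts after knockdown of Aurkb, the gene of the mitotic kinase aurora kinase B. The genes were picked by symbol from the table of all genes: Mmp2, Mmp3, Mmp10, Mmp11, Mmp13, Mmp14, Mmp19, Timp1, Timp2 and Timp3. These were 10 of 14870 genes, 7 MMPs and 3 TIMPs, and all 10 were among the 13906 genes with a high enough level to be tested. The fibroblasts came from TGFα mice, which were bitransgenic for CCSP-rtTA, with rtTA under the Clara cell-specific promoter of airway epithelium, and for (TetO)7-cmv TGFα. The study used male and female mice of 10 to 16 weeks of age, and TGFα had been switched on with Dox for 10 days. The cells were transfected with stealth control siRNA (3 libraries) or with stealth Aurkb siRNA (3 libraries), and the study lists 1 such siRNA for mouse Aurkb. Per the study, the siRNA treatment lasted 72 h. TGFα expression and Dox were thus common to both groups, and no cells of mice without TGFα were compared here. Whether the 3 libraries of a group came from separate animals or cultures is not stated in the sources used here, so the p-values measure the spread between these libraries, which may be technical.

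Control siRNA libraries held 29350227 to 30441954 counted reads and Aurkb siRNA libraries 20820596 to 27572833. Aurkb itself had 99.5, 108 and 134 normalized counts (reads divided by the size factor of the library) in control siRNA libraries 1, 2 and 3. It had 37.4, 52.8 and 28.9 in Aurkb siRNA libraries 1, 2 and 3, lower in every one (log2 change -1.52 ± 0.23 SE, limma adjusted p = 9.27e-04). All 10 fibroblast markers were detected, and Pdgfra and Dcn were the 2 that were lower with Aurkb siRNA. Markers of other cell types also moved. The 10 endothelial markers had summed normalized counts of 5934 to 7891 in control siRNA libraries and 2980 to 3737 in Aurkb siRNA libraries, and 9 of them were lower. Of the 8 pericyte and smooth muscle markers 5 were lower (Rgs5, Mcam, Notch3, Abcc9 and Kcnj8, log2 changes from -0.64 to -1.47). The sum of all 8 overlapped between the groups (11887 to 16064 against 10967 to 17872). Des made up most of that sum, with means of 9053 and 10453, and was not called, nor were Myh11 and Cspg4. Of 10 macrophage and other blood cell markers 3 were tested, of which Cd68 and Lyz2 were lower (sums 1135 to 1225 against 490 to 652), and Ptprc was at 1.79 to 6.21. The 7 neutrophil markers in the table had sums of 45.8 to 59.0 in control siRNA libraries and 272 to 310 in Aurkb siRNA libraries, 6 were higher, and Ngp was at 0 in every control library. Epithelial markers (sums 628 to 1025 against 694 to 1361) had 1 higher and 1 lower of 6 tested, and mesothelial markers (28862 to 34459 against 15796 to 29117) had 1 higher and 2 lower of 6. The marker that was higher was the same gene in both lists, Krt19. The part of these cells in the values below was not tested, and in bulk RNA fewer cells of a type and less RNA per cell cannot be told apart.

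MMPs are zinc proteases that cut collagens, proteoglycans, growth factor carriers and one another in the space around cells. They are made as inactive proenzymes whose prodomain is removed by plasmin, by furin-like proteases or by other MMPs, and the active enzymes are blocked by TIMPs. In lung fibroblasts they shape how scar matrix is laid down and removed, and TIMP2 has a dual role, since it also bridges the membrane protease MMP14 to proMMP2 so that MMP14 can activate it.

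Expression of 3 of the MMPs, Mmp13, Mmp3 and Mmp10, is textbook output of AP-1, the dimer of Fos and Jun proteins that binds just upstream of their start sites. The 100 bases before the RefSeq start of each are shown because these 3 genes lie in 1 cluster yet changed differently. Capitals mark the AP-1 word TGAGTCA or its reverse complement TGACTCA, and all 3 read on the plus strand of GRCm38.p6, at chr9:7272414-7272513, chr9:7445722-7445821 and chr9:7502242-7502341.
Mmp13: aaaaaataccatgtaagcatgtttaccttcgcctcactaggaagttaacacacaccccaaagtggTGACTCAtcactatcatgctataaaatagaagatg
Mmp3: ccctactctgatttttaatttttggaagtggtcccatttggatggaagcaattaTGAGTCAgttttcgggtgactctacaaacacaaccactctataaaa
Mmp10: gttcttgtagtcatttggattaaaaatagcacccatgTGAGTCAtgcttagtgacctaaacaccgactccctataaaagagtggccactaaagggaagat

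The word began 35 bases before the start of Mmp13, 46 before that of Mmp3 and 63 before that of Mmp10. Promoter windows (250 bases before to 50 after the start) were at hand for 8 of the 10 genes, and these 3 held the word on either strand. Those of Mmp11, Mmp14, Timp1, Timp2 and Timp3 did not, and Mmp2 and Mmp19 had no entry. Of all 32851 windows 5.20% held it. The TATA word TATAAA, searched on both strands and not overlapping the AP-1 word in the stretches above, was in the windows of the same 3 genes and in 13.6% of all windows. A match describes letters in these windows and is not a bound site.

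Of the 10 genes, 1 was called higher with Aurkb siRNA (Mmp10) and 1 lower (Timp2), where a call needs a limma adjusted p of at most 0.05 over all genes tested and a change of at least 1.5-fold. Over all genes tested 4.64% were called higher and 7.67% lower. Without the fold limit 7 of the 10 passed the adjusted p, 3 higher (Mmp10, Mmp13, Timp1) and 4 lower (Mmp2, Mmp11, Mmp19, Timp2), against 40.0% of all genes tested. The groups of 3 libraries did not overlap for the same 7 genes, against 52.2% of all genes tested. An exact two-sided permutation test gave p = 0.1 for each of them, the smallest value that 3 libraries against 3 allow. The median log2 change was 0.00 over the 10 genes and 0.00 over all genes tested.

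**Figure D1:**
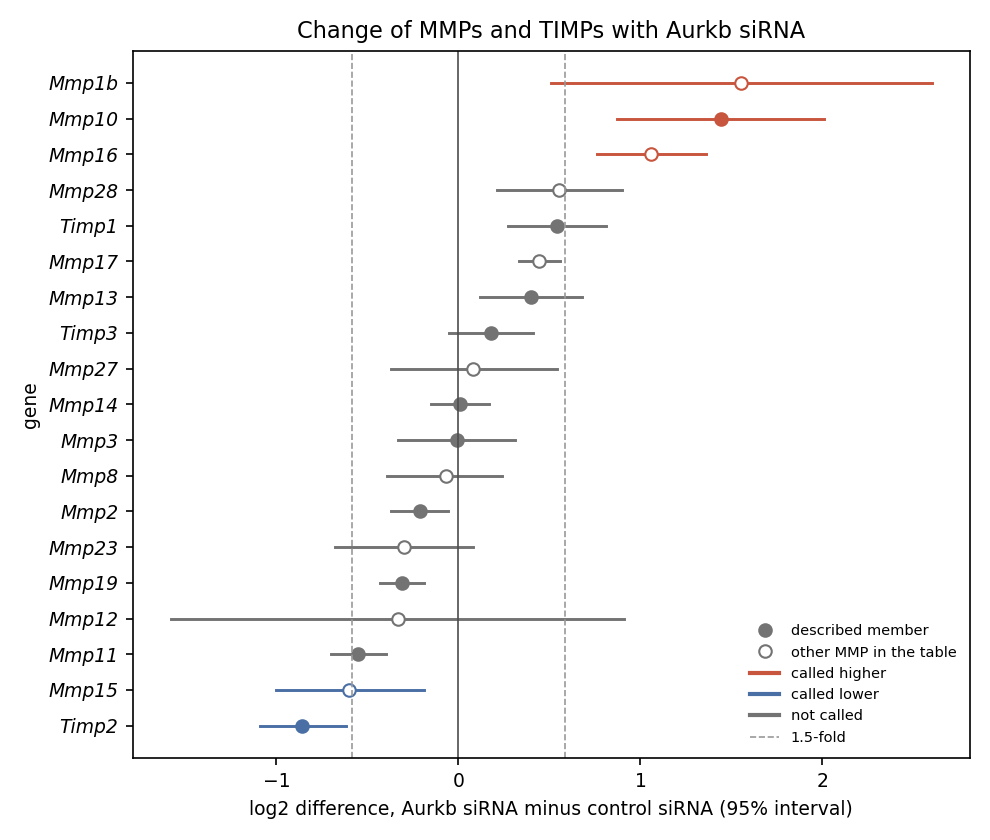
Log2 difference (Aurkb siRNA minus control siRNA, x axis) of each MMP or TIMP tested (y axis), with 95% intervals from limma; filled points are the 10 described genes, open points the other MMPs in the table, and dashed lines mark 1.5-fold. Mmp10 at 1.44 and Timp2 at -0.86 are the described genes past both limits, while Mmp3 and Mmp14 sit at 0.

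Levels are given per length, as RPKM. In control siRNA libraries the order of mean levels was Timp3 (632 ± 43.6 RPKM, SD, n = 3), Timp2 (596 ± 69.9), Timp1 (463 ± 33.7), Mmp14 (338 ± 7.12), Mmp2 (241 ± 7.86), Mmp11 (74.4 ± 4.62), Mmp3 (44.0 ± 9.26), Mmp19 (21.5 ± 1.09), Mmp13 (4.09 ± 0.627) and Mmp10 (2.83 ± 0.414). Only Timp3 and Timp2 overlapped among neighbours in that order. The most abundant, Timp3, ranked 80 and the least abundant, Mmp10, ranked 9619 among 14870 genes. With Aurkb siRNA the order changed in 2 places. Timp1 (683 ± 125 RPKM) and Mmp14 (342 ± 34.8) stood above Timp2 (331 ± 38.5), with Mmp14 and Timp2 overlapping, and Mmp10 (8.11 ± 3.38) stood above Mmp13 (5.39 ± 0.552), with overlap. Timp3 and Timp1 also overlapped with Aurkb siRNA, as did Mmp11 and Mmp3.

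**Figure D2:**
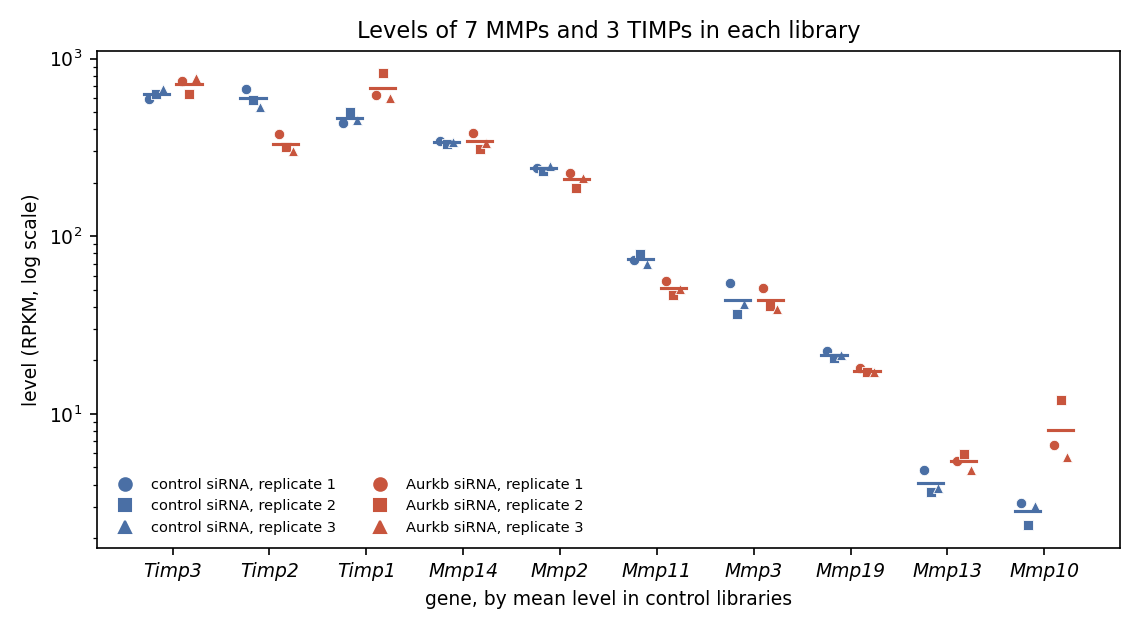
RPKM of the 10 genes on a log axis in every library, with symbols for the replicate number and a line at each group mean. Levels run from 2.36 RPKM for Mmp10 in a control library to 826 RPKM for Timp1 in an Aurkb siRNA library, and the groups lie apart for 7 of the 10 genes.

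Mmp2 encodes gelatinase A, which cuts denatured collagen and basement membrane collagen (Entrez gene 17390, chr8:92827290-92853421). It had 20099, 19117 and 20482 normalized counts in control siRNA libraries 1 to 3 and 18250, 15679 and 17604 in Aurkb siRNA libraries 1 to 3. The groups did not overlap, with Aurkb siRNA library 2 lowest. Mmp2 was lower by a small step (log2 change -0.21 ± 0.07 SE, limma adjusted p = 0.0337). It no longer passed the adjusted p without control siRNA library 1 (0.0778), control siRNA library 3 (0.104), Aurkb siRNA library 2 (0.0897) or Aurkb siRNA library 3 (0.0703).

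Mmp14 encodes the membrane-type protease MT1-MMP, which cuts fibrillar collagen at the cell surface and activates proMMP2 (Entrez gene 17387, chr14:54431598-54442456). It had 24420, 23202 and 23830 normalized counts with control siRNA and 26039, 22033 and 23947 with Aurkb siRNA. The Aurkb siRNA libraries lay on both sides of the control range, so the groups overlapped. The log2 change was 0.01 ± 0.07 SE (limma adjusted p = 0.937), with a 95% interval of -0.15 to 0.17. Mmp14 and Mmp2 together made up 78.7% to 80.7% of the RPKM of the 7 MMPs in control siRNA libraries and 80.3% to 82.4% in Aurkb siRNA libraries.

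Mmp3 and Mmp10 encode stromelysins 1 and 2, proteases of proteoglycans and other matrix proteins that also activate other proMMPs. Mmp10 (Entrez gene 17384, chr9:7502342-7510242) had 148, 111 and 142 normalized counts with control siRNA and 305, 568 and 271 with Aurkb siRNA. All Aurkb siRNA libraries were above all control libraries, and library 2 stood above the other Aurkb siRNA libraries. Mmp10 rose 2.86-fold in the means (log2 change 1.44 ± 0.25 SE, limma adjusted p = 0.00199). It remained called when any 1 library was left out, with log2 changes of 1.11 to 1.65.

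Mmp3 (Entrez gene 17392, chr9:7445822-7455975) had 2670, 1774 and 2019 normalized counts with control siRNA and 2429, 1996 and 1915 with Aurkb siRNA. Replicate 1 was the highest library of both groups, and the groups overlapped. The log2 change was -0.01 ± 0.14 SE (limma adjusted p = 0.947), with a 95% interval of -0.33 to 0.31. The ratio of Mmp3 to Mmp10 RPKM was 17.4, 15.5 and 13.7 in control siRNA libraries and 7.67, 3.38 and 6.81 in Aurkb siRNA libraries. The ratios did not overlap, and the exact two-sided permutation test gave p = 0.1, the smallest possible. This ratio was singled out after the values were seen, and its shift repeats that of Mmp10, as Mmp3 changed little. The transcripts of these paralogs were identical at 79.0% of aligned bases, with a longest shared run of 104 bases, so that reads in such stretches may have been split between them.

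Mmp13 encodes collagenase 3, the main interstitial collagenase of the mouse besides Mmp8 (Entrez gene 17386, chr9:7272514-7283333). It had 351, 263 and 278 normalized counts with control siRNA and 387, 433 and 352 with Aurkb siRNA. The groups barely cleared each other, since control siRNA library 1 nearly reached Aurkb siRNA library 3. Mmp13 was higher by less than 1.5-fold (log2 change 0.40 ± 0.12 SE, limma adjusted p = 0.0296). It did not pass the adjusted p without control siRNA library 2 (0.10), control siRNA library 3 (0.0989), Aurkb siRNA library 1 (0.0547) or Aurkb siRNA library 2 (0.0870).

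Mmp11 encodes stromelysin 3, which is activated inside the cell by furin and cuts few matrix proteins (Entrez gene 17385, chr10:75923221-75932502). It had 5454, 5821 and 5171 normalized counts with control siRNA and 4004, 3467 and 3754 with Aurkb siRNA. Every Aurkb siRNA library was below every control library by a wide margin. The fall was to 68.2% of the control mean (log2 change -0.55 ± 0.07 SE, limma adjusted p = 2.79e-04), just under the fold limit. Without control siRNA library 3 (log2 -0.59) or Aurkb siRNA library 1 (log2 -0.60) it passed that limit. Mmp11 shares 155 exon bases with Chchd10 on the other strand, which had at most 1206 reads in a library, against 2856 to 6317 for Mmp11. The strand setting of the counting is not given in the sources used here, so a part of the Mmp11 reads may belong to Chchd10, which was not tested.

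Mmp19 encodes a secreted protease of basement membrane proteins (Entrez gene 58223, chr10:128790910-128800827). It had 2144, 1922 and 2014 normalized counts with control siRNA and 1667, 1623 and 1618 with Aurkb siRNA. The groups lay apart and the Aurkb siRNA libraries were close together. Mmp19 was lower at 80.7% of the control mean (log2 change -0.31 ± 0.05 SE, limma adjusted p = 0.00195). It shares 789 exon bases with Tmem198b on the other strand, which had at most 482 reads in a library.

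Among the inhibitors, Timp2 fell, Timp1 was higher by a little under 1.5-fold, and Timp3 overlapped between the groups. Timp2 (Entrez gene 21858, chr11:118301061-118355411), the partner of MMP14 in proMMP2 activation, had 66467, 57033 and 52611 normalized counts with control siRNA. It had 35862, 31291 and 29913 with Aurkb siRNA. The lowest control library was far above the highest Aurkb siRNA library. Timp2 fell to 55.1% of the control mean (log2 change -0.86 ± 0.10 SE, limma adjusted p = 3.08e-04), and it remained called when any 1 library was left out (log2 -0.93 to -0.76).

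Timp1 (Entrez gene 21857, chrX:20870166-20874737), an inducible secreted inhibitor that blocks MMP14 poorly, had 12092, 13794 and 12577 normalized counts with control siRNA and 16758, 23055 and 16759 with Aurkb siRNA. All Aurkb siRNA libraries were above all control libraries, and library 2 was again highest. The log2 change was 0.54 ± 0.12 SE (limma adjusted p = 0.00627), under the fold limit. Timp1 passed that limit without control siRNA library 2 (log2 0.60), Aurkb siRNA library 1 (log2 0.62) or Aurkb siRNA library 3 (log2 0.62), so that the genes called higher then numbered 2 of 10. Timp1 lies inside Syn1, with which it shares no exon base in GENCODE.

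Timp3 (Entrez gene 21859, chr10:86300412-86349505), an inhibitor that stays bound to the matrix and also blocks ADAM proteases, had 75214, 80110 and 85939 normalized counts with control siRNA. It had 93031, 81523 and 99474 with Aurkb siRNA. Aurkb siRNA library 2 lay within the control range. The log2 change was 0.18 ± 0.10 SE (limma adjusted p = 0.193), with a 95% interval of -0.05 to 0.41. Timp3 lies on the other strand within Syn3 and shares 1733 exon bases with it, but Syn3 had at most 31 reads in a library.

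The summed levels of inhibitors and of proteases overlapped between the groups. Summed TIMP RPKM was 1696, 1715 and 1665 with control siRNA and 1747, 1778 and 1679 with Aurkb siRNA. Summed RPKM of the 7 MMPs was 745, 705 and 725 with control siRNA and 743, 620 and 665 with Aurkb siRNA. TIMPs made up 69.5%, 70.9% and 69.7% of the RPKM of the 10 genes with control siRNA and 70.2%, 74.1% and 71.6% with Aurkb siRNA, a difference of the means of 1.97 percentage points that was smaller than the SD of the Aurkb siRNA libraries (2.01). Within each replicate number, the share and the summed TIMP RPKM were higher and the summed MMP RPKM was lower with Aurkb siRNA, in 3 of 3 pairs, which was not tested.

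In RPKM the order of the TIMPs differed, since Timp1 was below Timp2 in each control library and above it in each Aurkb siRNA library. This crossing depends on the division by length. In normalized counts Timp2 stayed above Timp1 in every library, with 35862, 31291 and 29913 against 16758, 23055 and 16759 in Aurkb siRNA libraries 1 to 3. The ratio of Timp1 to Timp2 RPKM was 0.647, 0.860 and 0.850 with control siRNA and 1.66, 2.62 and 1.99 with Aurkb siRNA. The ratio of Timp2 to Mmp14 RPKM was 1.95, 1.76 and 1.58 with control siRNA and 0.988, 1.02 and 0.896 with Aurkb siRNA. Neither ratio overlapped between the groups, and the exact two-sided permutation test gave p = 0.1 for each, the smallest possible. Since the groups of Timp1 and Timp2 lay apart in opposite directions, their ratio had to separate. The Timp2 to Mmp14 ratio repeats the fall of Timp2, as Mmp14 changed little. These tests thus add nothing to the results of the single genes. Both ratios were singled out after the values were seen, and transcript levels do not measure the secreted proteins.

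**Figure D3:**
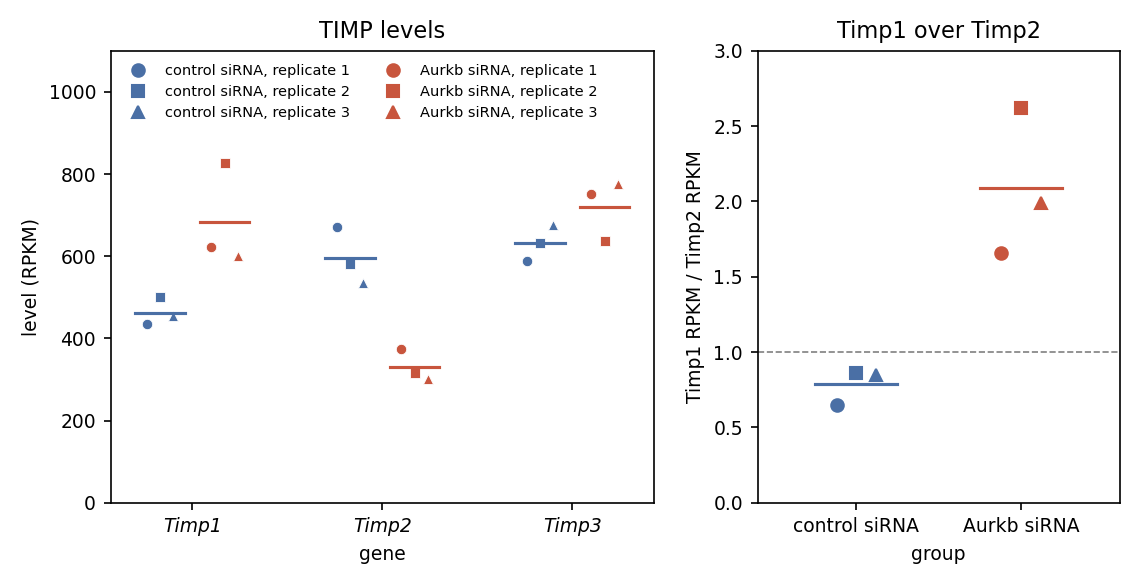
RPKM of the 3 TIMPs in every library (left) and the ratio of Timp1 to Timp2 RPKM (right), with a line at each group mean and a dashed line where both are equal. The control siRNA ratios lie between 0.647 and 0.860 and the Aurkb siRNA ratios between 1.66 and 2.62.

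Mmp13, Mmp3 and Mmp10 belong to a cluster of 10 MMP genes at chr9:7272514-7699585 (GRCm38.p6), of which 7 were in the table and tested. Along the cluster the log2 changes were 0.40 for Mmp13, -0.33 for Mmp12, 1.55 for Mmp1b, -0.01 for Mmp3, 1.44 for Mmp10, -0.07 for Mmp8 and 0.08 for Mmp27. Mmp10 and Mmp1b, which were called higher, thus had neighbours that were not called. The AP-1 word was in the promoter windows of Mmp13, Mmp12, Mmp1b, Mmp3 and Mmp10 and not in those of Mmp8 and Mmp27. Among the windows with the word, log2 changes ran from -0.33 to 1.55, and both ends belong to genes with few counts. Mmp12 averaged 12.8 normalized counts with control siRNA and 8.32 with Aurkb siRNA, and Mmp1b 3.65 and 13.7. The genes with the word and more counts, Mmp3, Mmp13 and Mmp10, ran from -0.01 to 1.44. Over the 25 windows of MMP and TIMP genes 7 held the word, all in this cluster, the other two being Mmp1a and Mmp7, which were not analysed here.

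**Figure D4:**
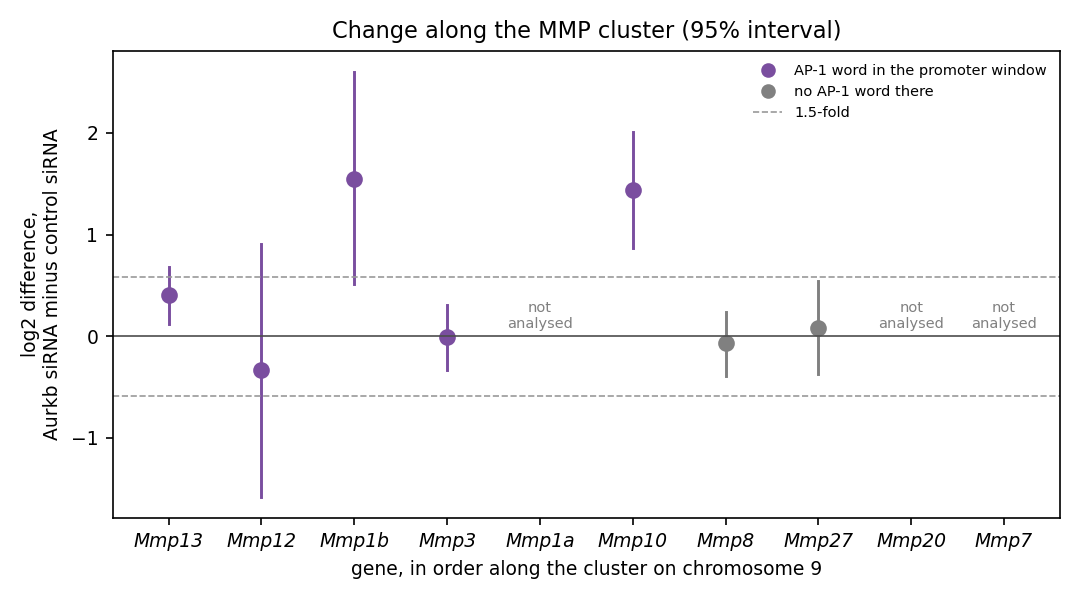
Log2 difference (Aurkb siRNA minus control siRNA, y axis, 95% interval from limma) of the MMP genes in the order of their position in the chromosome 9 cluster (x axis), with color for the AP-1 word in the promoter window and dashed lines at 1.5-fold. Mmp1b at 1.55 and Mmp10 at 1.44 are past 1.5-fold, while Mmp3 between them is at -0.01.

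Of 17 other MMP and TIMP genes looked for, 10 were in the table and 9 were tested. Among these 9, 2 were called higher and 1 lower, against 4.64% and 7.67% of all genes tested. Mmp16, which encodes the membrane-type protease MT3-MMP, had 79.8, 94.9 and 77.8 normalized counts with control siRNA and 157, 185 and 188 with Aurkb siRNA. The groups were apart by a wide margin and Mmp16 rose 2.10-fold (log2 change 1.06 ± 0.13 SE, limma adjusted p = 3.58e-04). On log2(RPKM + 1) its change was 0.53, under the fold limit.

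Mmp1b, an interstitial collagenase homologue, had few reads, with 2.69, 3.69 and 4.58 normalized counts with control siRNA and 10.6, 22.8 and 7.89 with Aurkb siRNA (log2 change 1.55 ± 0.46 SE, limma adjusted p = 0.0253). The groups were apart, but the call was lost without control siRNA library 1 (0.0686), control siRNA library 2 (0.0561) or Aurkb siRNA library 2 (0.105), and on log2(RPKM + 1), where the change was 0.23 (0.0521). Its transcript is identical to that of Mmp1a at 90.9% of aligned bases, so these counts are uncertain.

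Mmp15, encoding the membrane-type protease MT2-MMP, had 192, 127 and 179 normalized counts with control siRNA and 110, 92.1 and 124 with Aurkb siRNA (log2 change -0.60 ± 0.18 SE, limma adjusted p = 0.0259). The groups were apart by a small margin, and the call was lost without control siRNA library 1 (log2 -0.48), control siRNA library 3 (-0.53) or Aurkb siRNA library 2 (-0.48). It was also lost with quantile normalization (-0.56), a pseudocount of 5 (-0.58) or log2(RPKM + 1) (-0.32). Mmp17 and Mmp28, which encode a membrane-anchored protease and epilysin, were higher by less than 1.5-fold (log2 0.44 ± 0.05 and 0.55 ± 0.15 SE, limma adjusted p = 2.50e-04 and 0.0184). Mmp28 passed that limit without control siRNA library 2 (log2 0.59), control siRNA library 3 (0.60) or Aurkb siRNA library 1 (0.64). It missed the adjusted p without control siRNA library 1 (0.0626) or Aurkb siRNA library 3 (0.0722).

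Mmp8, known as neutrophil collagenase, was the sixth most abundant of the family. It had 7390, 10107 and 9076 normalized counts with control siRNA and 7241, 10233 and 7849 with Aurkb siRNA, overlapping between the groups (log2 change -0.07, 95% interval -0.39 to 0.24). Of the 7 neutrophil genes in the table, Mpo, Elane, Ctsg, Ngp and S100a9 had at most 1.83 normalized counts each in the control siRNA libraries, S100a8 had at most 5.53, and Prtn3 had 50.2, 52.5 and 41.2. Mmp12, Mmp23 and Mmp27 were not called either, with log2 changes of -0.33, -0.30 and 0.08, and Timp4 had at most 5.38 normalized counts and was not tested. With the replicate number as a block Mmp23 passed the adjusted p (limma adjusted p = 0.00109, against 0.191 without it), under the fold limit.

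The proteins that act on MMPs were followed in lists, given as genes called among genes tested. For each list the shares over all genes tested are 4.64% called higher and 7.67% called lower. Of 7 activators of proMMPs, Plaur, the receptor of urokinase, rose (log2 change 0.77 ± 0.08 SE) and Plat, the tissue plasminogen activator, fell (-0.99 ± 0.16). Plau, urokinase itself, had 3297, 1520 and 1642 normalized counts with control siRNA and 2198, 979 and 954 with Aurkb siRNA, so that replicate 1 was highest in both groups and the groups overlapped. It was not called (log2 -0.67, limma adjusted p = 0.167), but was called lower with the replicate number as a block (limma adjusted p = 3.25e-06) and without Aurkb siRNA library 1 (log2 -1.06). Among the other inhibitors and clearance proteins, Spock2, a testican proteoglycan with few counts, fell (-1.05 ± 0.25, but -0.21 on log2(RPKM + 1)). The membrane-anchored MMP inhibitor Reck was not called (0.17 ± 0.06, limma adjusted p = 0.0647), though its groups were narrowly apart in the higher direction. With the replicate number as a block Reck passed the adjusted p (limma adjusted p = 0.0338), under the fold limit.

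Of 9 proteins to which MMPs or TIMPs dock, 3 were lower and 1 higher, against 7.67% and 4.64% of all genes tested. Itgav and Itgb3, the chains of the vitronectin receptor that binds MMP2, fell (log2 change -1.01 ± 0.07 and -0.91 ± 0.09 SE). Cd9, a tetraspanin, fell (-0.65 ± 0.09), with -0.57 without control siRNA library 1 and -0.56 without Aurkb siRNA library 2, under the fold limit. Cd44, a hyaluronan receptor on which MMPs dock, rose (0.61 ± 0.06), with 0.55 without Aurkb siRNA library 2.

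Of 16 transcription factors that bind MMP promoters, from the AP-1, ETS and RUNX families and with Egr1 of the EGR zinc finger family, 2 were higher and 2 lower. Fosl1, a Fos family member, had 11.7, 4.61 and 8.24 normalized counts with control siRNA and 24.0, 29.0 and 15.8 with Aurkb siRNA. Its groups were apart at this low level (log2 change 1.42 ± 0.39 SE, limma adjusted p = 0.0177), and the adjusted p was 0.0508 without control siRNA library 2 and 0.0612 without Aurkb siRNA library 2. On log2(RPKM + 1) its change was 0.35, under the fold limit. Atf3 rose (0.71 ± 0.16), with 0.57 without Aurkb siRNA library 1 and 0.43 on log2(RPKM + 1), both under the fold limit. The ETS factor Etv1 fell (-0.71 ± 0.10), and so did Egr1 (-0.69 ± 0.14), with -0.57 without control siRNA library 1 or without Aurkb siRNA library 2. Of the more abundant AP-1 genes, Jund was higher by less than 1.5-fold with its groups apart (log2 change 0.29 ± 0.07 SE, limma adjusted p = 0.0107). Jun, Junb, Fos and Fosl2 did not pass the adjusted p, with log2 changes of 0.07, -0.11, 0.22 and -0.12. Fosl2 also had its groups apart, in the lower direction. With the replicate number as a block Fos and Fosl2 passed (limma adjusted p = 0.0447 and 0.0274), under the fold limit. The ETS factors Ets1 and Ets2 were lower by less than 1.5-fold with their groups apart (log2 change -0.47 ± 0.08 and -0.44 ± 0.10 SE, limma adjusted p = 0.00203 and 0.00659).

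Of 12 MMP-inducing cytokines and receptors, Lif (log2 change 1.03 ± 0.09 SE) and Il6 (0.89 ± 0.11) rose. Il1r1, the receptor of interleukin 1, fell (-0.63 ± 0.14), with -0.55 without control siRNA library 3 and -0.48 without Aurkb siRNA library 1. Il1a, Il1b, Tnf and Areg were looked for and not analysed here.

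Of 18 matrix substrates of MMPs, 1 was higher and 1 lower. Dcn, the collagen-binding proteoglycan decorin, fell (log2 change -1.07 ± 0.18 SE). Vcan, versican, had 1267, 1361 and 1511 normalized counts with control siRNA and 1736, 3987 and 2200 with Aurkb siRNA (0.85 ± 0.25, limma adjusted p = 0.0228). Aurkb siRNA library 2 was far above the other libraries, and the log2 change without it was 0.51. The adjusted p without a control library was 0.0595 (replicate 1), 0.0691 (replicate 2) or 0.050 (replicate 3, just over the limit before rounding). The call of Vcan was thus kept in only 2 of the 6 fits without 1 library.

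Of 7 other genes of collagen breakdown 3 were called, all lower, against 7.67% of all genes tested called lower. The median log2 change of the list was -0.59, against 0.00 over all genes tested, and the list was not tested as a set. Fap, a fibroblast surface protease, fell (log2 change -0.96 ± 0.07 SE). The lysosomal proteases Ctsk (-0.61 ± 0.11) and Ctsb (-0.59 ± 0.10) were near the fold limit. Ctsk was under it without control siRNA library 1 (-0.50) or Aurkb siRNA library 3 (-0.51), and Ctsb without control siRNA library 1 (-0.53), Aurkb siRNA library 2 (-0.55) or Aurkb siRNA library 3 (-0.54). Other scalings also put them under it, Ctsk with quantile normalization (-0.57) and Ctsb when scaled to total counted reads (-0.58) or on log2(RPKM + 1) (-0.58).

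The genes whose library profiles were nearest to those of Mmp10 and Timp2 were found among 12107 genes, those averaging 50 or more normalized counts in either group. The distance was the root mean square difference over the 6 libraries of log2(normalized count + 1) minus the control mean. For Mmp10 these were Ankrd1 (distance 0.20), Spp1 (0.23) and Hmga2 (0.25), with log2 changes of 1.52, 1.41 and 1.20. As in Mmp10, Aurkb siRNA library 2 was the highest in all 3, which goes with their choice by distance and is no separate result. For Timp2 they were Kazn (0.05), Gem (0.07) and Sox17 (0.07), with log2 changes of -0.82, -0.88 and -0.93. Sox17 marks endothelial cells among other cells, at 110 ± 10.9 (SD, n = 3) normalized counts with control siRNA and 57.1 ± 6.6 with Aurkb siRNA.

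**Figure D5:**
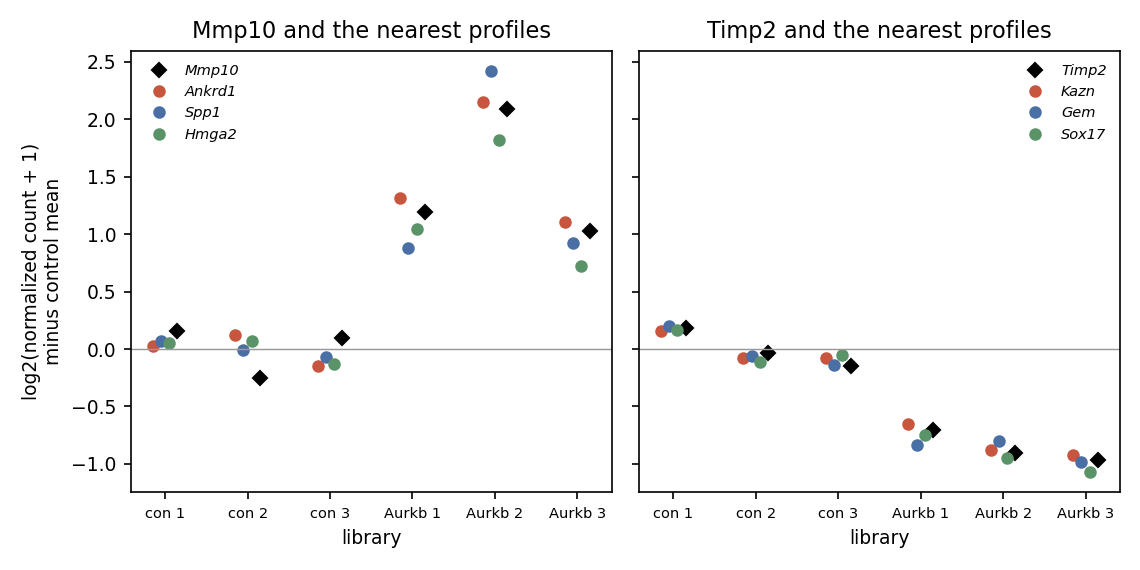
Log2(normalized count + 1) minus the control mean (y axis) in the 6 libraries (x axis) for Mmp10 and Timp2 (diamonds) and the 3 genes nearest to each (circles). Ankrd1, Spp1 and Hmga2, chosen by distance, share the high value of Aurkb siRNA library 2 with Mmp10, and the genes near Timp2 lie within about 0.07 of it in root mean square.

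The transcripts were also searched for AACGTGT and ACGTGTA on the sense strand, overlapping words that earlier work on these data had found often in the 3′UTRs of genes that were lower with Aurkb siRNA. At least 1 of these words was in the 3′UTR of 5.68% of the 12838 tested genes with a transcript. The share was 19.9% of those called lower and 3.12% of those called higher. The words were taken from these same data, so their share among genes called lower repeats that choice and is no separate result. In the coding sequence at least 1 of the words was found in 962 of the 12838 genes and in 140 of the 1018 called lower. The 3′UTR or coding sequence of 0 of the 10 MMP and TIMP genes held a word, Timp2 included. With only 10 genes, 0 cannot be told apart from these shares over all genes, and a role of the words was not tested.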

How the data were processed

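RNA of lung-resident fibroblasts was sequenced, with 3 libraries for control siRNA and 3 for Aurkb siRNA. Per the submitters' processing notes, the tools were TopHat, DESeq, CASAVA 1.8 and bcl2fastq, and the genome was mm10. The sources used here do not state the counting tool, its strand setting or its annotation. The RPKM values deposited by the authors give reads per length and counted reads, a unit inferred from the values. The signal values deposited by the authors are group means of counts divided by DESeq size factors. Their columns of fold changes, p-values and adjusted p-values were not used, and a second table that repeats rows of the first was left out.

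RPKM values were whole multiples of a step for each gene and library, so reads and size factors were recovered (100% whole, tolerance 0.001), and normalized counts are reads divided by these size factors. Genes averaging 10 or more in either group were fitted on log2(normalized count + 1) with limma 3.58.1 (trend, R 4.3.3) and Benjamini-Hochberg adjustment over all genes tested, and the fit was tested on simulated data. Fold changes are on the log2(value + 1) scale, which understates those of low genes. Standard errors cover the spread between libraries. Genes were matched to RefSeq on GRCm38.p6 by Entrez number (14853 genes), promoters come from the RefSeq table of that build and transcripts from GENCODE M21. Other steps ran in Python 3.11.15 (Biopython 1.88, matplotlib 3.10.9, scipy 1.17.1, numpy 2.4.6, pandas 2.3.3).

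Libraries of the same replicate number had deviations from their group means that correlated at 0.40, 0.17 and 0.21 across genes, against -0.24 to 0.05 for different numbers, so the replicate number also entered a fit as a block; the pairing comes from these correlations alone. Alternatives were 2 other scalings, voom, other pseudocounts (0.5 and 5), minimums (none and 50), RPKM, the block, and leaving out each library. The genes and lists were chosen with earlier results of these data known. Named were the 10 genes, every other MMP or TIMP in the table, up to 6 called genes per list by adjusted p, and the 3 genes nearest in profile to the members with the largest rise and fall; Aurkb, cell markers, and uncalled genes of a list were named beside these. The count and 1 result of the list of other inhibitors and clearance proteins are not reported here.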

Additional observations from a re-analysis of the deposited data

How the results depend on the processing

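The calls of Mmp10 (higher) and Timp2 (lower) were kept under all 15 alternatives, and the number of the 10 genes called ran from 1 to 2 higher and from 1 to 2 lower when 1 library was left out. Over all genes, log2(RPKM + 1) in place of normalized counts gave 310 higher and 535 lower, against 645 and 1067; RPKM plus 1 shrinks the changes of genes with low RPKM. With the replicate block 694 genes were higher and 1171 lower, 1 of the 10 genes was higher and 1 lower, and the pairing changed no call of the MMPs, TIMPs and called list genes named above, but it did change that of Plau. Of 150 values of the 10 genes under alternatives, 139 had the same direction and call, 5 newly passed both limits (Timp1 and Mmp11, without 1 library) and 6 changed direction, all of Mmp3 or Mmp14. Mmp14 was at -0.06 with quantile normalization and ran from -0.05 to 0.07 without 1 library, and Mmp3 from -0.14 to 0.15. Among the others, Mmp8 ran from -0.22 to 0.03, Mmp12 from -1.0 to 0.04 and Mmp27 from -0.06 to 0.32 without 1 library. Without 1 library 5 or 6 of the 10 genes passed the adjusted p, against 7. Mmp2 also missed the adjusted p when scaled to total counted reads (0.0510) or on log2(RPKM + 1) (0.0574). The causes of these shifts were not tested. The groups of 7 genes did not overlap under each scaling, and 7 or 8 were apart without 1 library, alternatives chosen after seeing the data. Groups that are apart stay apart when 1 library is left out, so the latter count could not fall below 7. The share of all genes apart was not computed for these alternatives. The TIMP share of RPKM differed by 0.893 to 2.88 percentage points without 1 library, by 1.99 over all MMPs and TIMPs in the table, and by 0.414 in normalized counts not divided by length.

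Mmp1b, Mmp12 and Timp4 had at most 22.8 normalized counts in a library, and the intervals of Mmp1b (0.51 to 2.60) and Mmp12 (-1.58 to 0.91) were wide.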
